A study of Mus musculus with 4 samples.

Results

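Ligament-like tissue grown from stem cells that had been given a mouse gene was set against ligament of mice carrying the same gene as a transgene. Both samples received the gene, which the labels call only A, so the comparison sets a tissue made in culture against a ligament taken from an animal with A given to each. Every gene whose probe was well above background on at least 1 of the 2 arrays was taken, by the mark that the scanner software gives each spot. This gave 18755 genes out of 30165 names on the array, of which 14221 were measured on both arrays, 2456 were above background only in the transfected tissue and 2078 only in transgenic ligament.

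RNA of 4 mouse samples was measured on Agilent whole-genome arrays in 1 colour (Cy3), with 1 array a sample. The transfected tissue came from mesenchymal stem cells of C3H embryos, obtained from a public cell bank and transfected with A in pCAGGS, a plasmid whose promoter is active in most cell types. The transgenic ligament came from C57BL/6J mice made by placing the same plasmid in fertilised eggs. The 2 other arrays held the untransfected stem cells (C3H) and ligament of wild type C57BL/6J mice, and serve here as side values. Strain, culture and the kind of sample differ together between the tissue and ligament, and their effects cannot be told apart. The labels do not give the ligament's site in the body, the animals' age, or the number of cultures or animals behind a sample. A is not named in the labels, so its own signal was not used to check them. With 1 array a group there is no replicate check of any difference, and no test was made.

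Ligaments and tendons are bands of parallel type I collagen fibrils laid down by fibroblasts. Scleraxis drives the fate of these cells in the embryo, and small leucine-rich proteoglycans bind the fibrils and set how thick they grow. Collagen chains are hydroxylated and folded in the endoplasmic reticulum, cut outside the cell by procollagen proteinases and then crosslinked by lysyl oxidases. Fibroblasts in culture are known to keep much of their collagen production while losing contact with the muscle, bone, vessels, skin and blood that surround a ligament in the body.

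Signals are given as log2 of the processed signal minus the 75th percentile of the same array, so a level of 0 means as bright as the 75th percentile, and a difference is always the transfected tissue minus transgenic ligament. A gene is counted as higher or lower from 2-fold (a difference of 1). If a gene had no signal well above background on the dimmer array, its value is a lower limit, written as at least N-fold: the dim side is then put at that array's lowest signal well above background, or at the probe's measured signal if that was larger. The 75th percentile was a processed signal of 2272 in the tissue and 303 in transgenic ligament, and the 100 brightest spots held 10.1% and 22.4% of the signal. The SD of a difference that comes from spots alone, from repeated probes, was 0.126, which leaves out all spread between cultures and animals. In RNA of whole tissue, fewer cells of a type and less RNA per cell cannot be told apart.

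The arrays lay far apart. Of the 18755 genes, 3818 were higher in the transfected tissue (20.4%) and 6840 lower (36.5%), and 8097 differed by less than 2-fold. At 4-fold the shares were 8.48% and 22.9%, and at 8-fold 3.08% and 13%. The median difference over all genes was -0.23 with bounds included, with quartiles of -1.83 and 0.72. All 2078 genes above background only in transgenic ligament are among the lower genes by construction, because the lowest signal above background lay at -5.71 in the tissue and at -3.90 in transgenic ligament. The excess of lower genes depends on the scaling: higher genes made up 35.8% of all calls here, but 52.6% after quantile normalization, 52.1% in the authors' deposited value table, 28.8% after normexp background correction and 67.6% with ribosomal protein genes set equal. The median difference over all genes, bounds included, is 0.13, 0.11, -0.31 and 0.66 under these scalings in the same order. Each list median below is read against the value of -0.23 found here. Counts of a list are read against the shares of 20.4% and 36.5% in the same way. The Pearson correlation of the levels over all 18755 genes was 0.684, a description across genes that share both arrays.

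**Figure D1:**
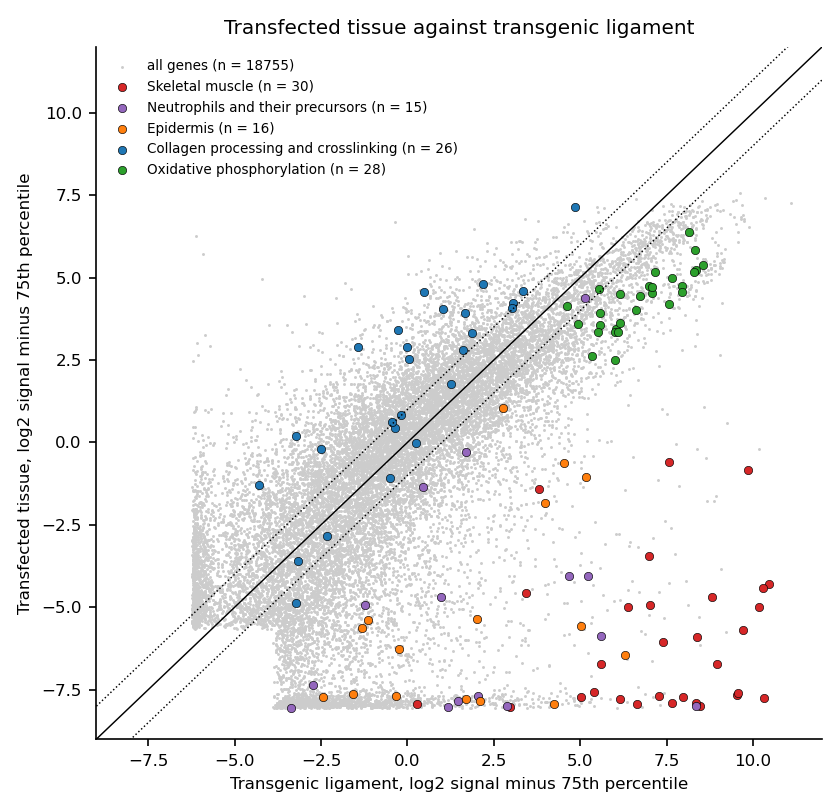
Level of each of 18755 genes in the transfected tissue (vertical axis) against transgenic ligament (horizontal axis), both as log2 signal minus the array's 75th percentile, with 1 array a sample. The solid line marks equality and the dotted lines 2-fold, and the coloured points are genes of 5 lists. Skeletal muscle genes lie far below the line, oxidative phosphorylation genes lie below it in a tight group, and most collagen processing genes lie above it.

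Marker genes of many other cell types were brighter in transgenic ligament than in the cultured tissue, and they accompany every value that follows. All 30 skeletal muscle genes were above background there, against 11 in the tissue, and their median level was 7.61 against -6.71. Their part in the other results was not tested. Wild type ligament had 29 of the 30 above background with a median level of 6.99, so this signal was in both ligament arrays. For 12 lists of other cell types (muscle and its precursors, endothelium, macrophages, neutrophils, eosinophils and mast cells, red cells, lymphocytes, epidermis, osteoclasts, bone and fat), 154 of the 168 genes with a value were lower in the tissue and 3 were higher, against 36.5% and 20.4% of all genes. Of the 168 values 93 are bounds, and 90 of these had signal above background only in ligament and so could hardly come out otherwise. Of the 75 genes measured on both arrays, 64 were lower and 2 higher, against 33.5% and 21.7% of all genes measured on both. Other cell type lists were less one-sided. Nerve and Schwann cell genes had 4 of 12 lower and 1 higher, with a median of -0.14, near the share and median of all genes: the myelin gene Mbp had a difference of -3.83 and S100b, a calcium-binding protein of glia, one of 2.45. Pigment cell genes had 2 of 5 lower and 1 higher, and cartilage genes 11 of 15 lower and 2 higher.

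Skeletal muscle genes were prominent among the genes furthest below transgenic ligament. Of the 50 lowest genes, 21 belonged to the skeletal muscle list, whose 30 members were all lower, with a median of -13.06, or -11.38 over the 11 measured on both arrays. Troponin C of fast muscle, Tnnc2 (probe at chromosome 2, 164602661 to 164602720, mm9), had a level of -5.00 in the tissue and -5.25 in stem cells, against 10.18 in transgenic and 10.24 in wild type ligament. Its difference of -15.18 was the lowest among genes measured on both arrays. Myh8, the perinatal myosin heavy chain, was not well above background in the tissue or in stem cells and had levels of 10.32 and 10.54 in transgenic and wild type ligament, which makes it at least 67332-fold lower. In the muscle precursor list 8 of 9 genes were lower, against 36.5% of all genes. Of these 9 values 7 are bounds with signal only in ligament, which are lower by construction. Of the 2 genes measured on both arrays, 1 was lower. The muscle-determining factors Myod1 and Myog were not well above background in either cell array and were at least 35.2-fold and 34.9-fold lower, while Pax7, the marker of muscle stem cells, was not well above background on any of the 4 arrays.

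Blood, skin and bone genes gave the next largest distances. The neutrophil calgranulin S100a9 was at least 17001-fold lower, with a level of 8.34 in transgenic and 9.38 in wild type ligament. Neutrophil genes had 14 of 15 members lower, with a median of -6.89, or -3.69 over the 7 measured on both arrays. Hbb-bt, an adult beta globin with near-identical copies, was at least 8279-fold lower. All 12 red cell genes with a value were lower, but 10 of these values are bounds. The cornified envelope gene Lor was at least 4163-fold lower, and its level of 6.31 in transgenic ligament stood above 3.33 in wild type ligament. All 16 epidermal genes were lower, with a median of -5.64, but 10 of these values are bounds. Acp5, the tartrate-resistant phosphatase of osteoclasts, was at least 6167-fold lower, and the collagen-degrading protease Ctsk had levels of -4.24 and 4.83 in tissue and transgenic ligament. All 10 osteoclast genes were lower, as were all 8 genes of eosinophils and mast cells and all 11 of lymphocytes. In the same order, 5, 5 and 6 of these values are bounds with signal only in ligament, which are lower by construction. Over all genes 36.5% were lower. In bone-forming cells, 8 of 12 genes were lower and 1 was higher, and 6 of the 12 values are bounds. Bglap, osteocalcin, was at least 1213-fold lower (its neighbour Bglap2 is a near-identical copy), whereas Runx2, the transcription factor that starts bone formation, was at least 5.64-fold higher.

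The 3 genes of these lists that were higher were Runx2, Cd14 and Pparg. Cd14, the co-receptor for bacterial lipopolysaccharide, had levels of 0.17 in the tissue and -2.28 in transgenic ligament. Pparg, the regulator of fat cell formation, had levels of 1.97 and -0.42, a difference of 2.39. The hormone adiponectin, Adipoq, had levels of -0.86 and 2.38, and was not well above background in stem cells, so the tissue lay between the stem cells and ligament. Endothelial genes had 14 of 16 members lower, against 36.5% of all genes. Of these 16 values 9 are bounds, and of the 7 measured on both arrays 6 were lower. Cdh5, the cadherin of vessel walls, was at least 85.8-fold lower.

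**Figure D2:**
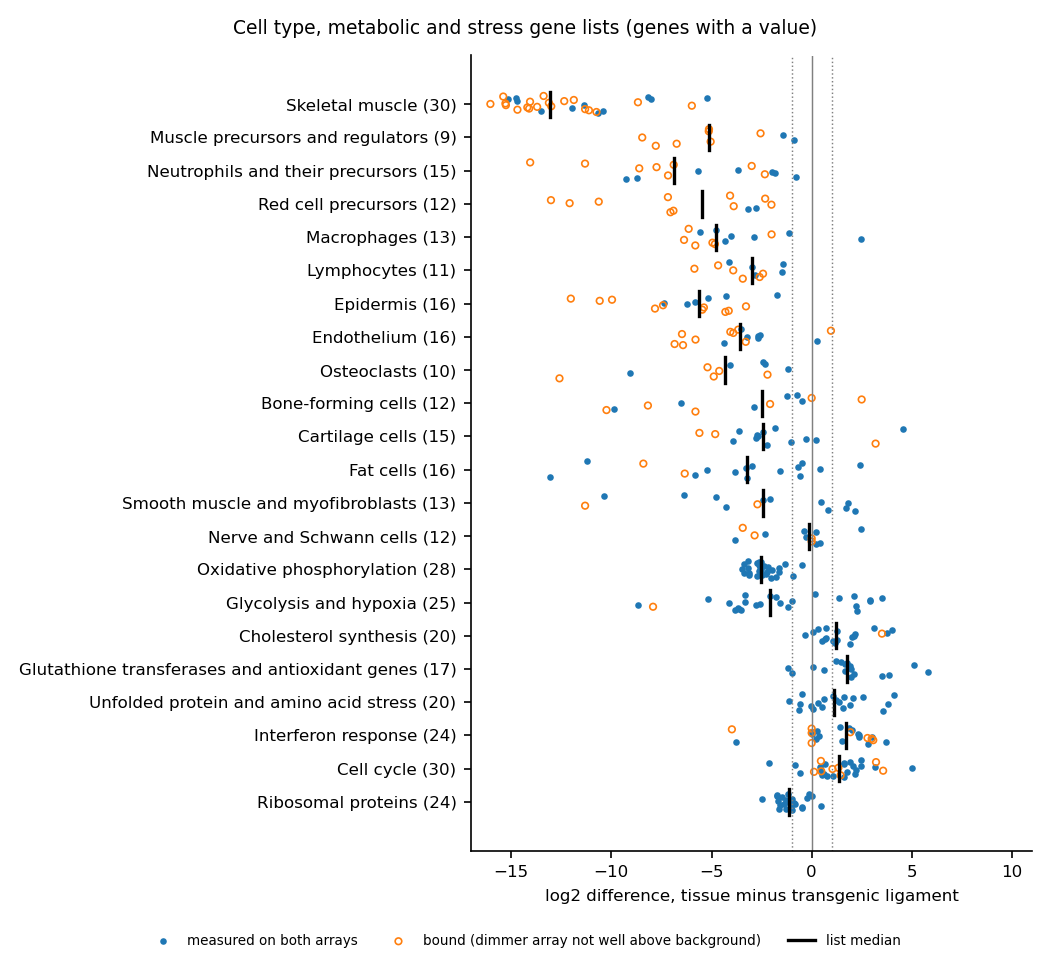
Difference in log2 signal (transfected tissue minus transgenic ligament) for the genes of 22 lists of cell types and cell functions, with 1 array a sample. Filled points were measured on both arrays, open points are bounds, black bars are list medians and dotted lines mark 2-fold. Muscle, blood, skin and osteoclast lists lie far to the left, cholesterol, glutathione, interferon and cell cycle lists lie to the right, and the ribosomal protein median of -1.13 becomes 0.57 after quantile normalization.

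Tendon and ligament genes were lower in the tissue for the larger part. Of 20 genes with a value, 13 were lower and 3 higher, against 36.5% and 20.4% of all genes. The median was -1.97 and ran from -2.06 to -0.79 over the other settings. Of the 20 values 7 are bounds, and a bound with signal only in ligament is lower by construction. Of the 13 genes measured on both arrays, 7 were lower and 3 higher, with a median of -1.18. Among all genes measured on both, 33.5% were lower and 21.7% higher. Against wild type ligament 11 were lower and 5 higher, where 35.6% and 20.6% of all genes were. The counts against the 2 ligaments use the same tissue array, so they are not separate observations. Scleraxis (Scx, probe at chromosome 15, 76289708 to 76289767, mm9) had a level of -1.18 in the tissue and 0.57 in stem cells, against 2.02 in wild type and 3.10 in transgenic ligament. The tissue was the lowest of the 4 arrays, 19.4-fold under transgenic ligament. Thbs4, thrombospondin 4 of the tendon matrix, was not well above background in the tissue and had levels of -4.95 in stem cells, 2.59 in wild type and 4.60 in transgenic ligament. It was at least 1269.6-fold lower, the widest distance on the list. Fmod, fibromodulin, had levels of -2.78 in the tissue, -2.71 in stem cells, -0.33 in wild type and 1.82 in transgenic ligament, a difference of -4.59. Comp, the matrix protein that joins collagen fibrils, had a level of 2.15 in transgenic ligament and lay between -0.64 and -0.43 on the 3 other arrays. So Comp was 6.85-fold lower than in transgenic ligament, but the tissue differed from wild type ligament by only -0.19.

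Cilp, a protein of the cartilage and tendon matrix, was at least 207-fold lower, Chad, a collagen-binding protein, at least 71.4-fold, Eya2, a transcription cofactor, at least 52.3-fold, tenascin C (Tnc) at least 18.4-fold and the growth factor Gdf5 at least 4.41-fold. None of these 5 was well above background in the tissue. Kera, a proteoglycan of cornea and tendon, had a difference of -3.68, the collagen receptor subunit Itga11 one of -1.79 and Eya1 one of -1.24. Tenomodulin (Tnmd), the membrane protein of mature tendon cells, had levels of -1.61 in the tissue and -0.43 in transgenic ligament, but only -2.89 in wild type ligament. The tissue was therefore 2.26-fold below transgenic and above wild type ligament by a difference of 1.28. Six2 and Egr2 lay within 2-fold, with differences of 0.06 and 0.42, but a second Six2 probe gave 1.37. No fold could be given for Gdf6. The 3 higher genes were the tendon regulators Mkx (levels of -1.25 and -3.35) and Egr1 (2.60 and 0.07) and the fibrillin Fbn2 (0.21 and -2.97). Stem cells had levels of -1.27, 2.32 and 0.94 for these genes, within 2-fold of the tissue.

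**Figure D3:**
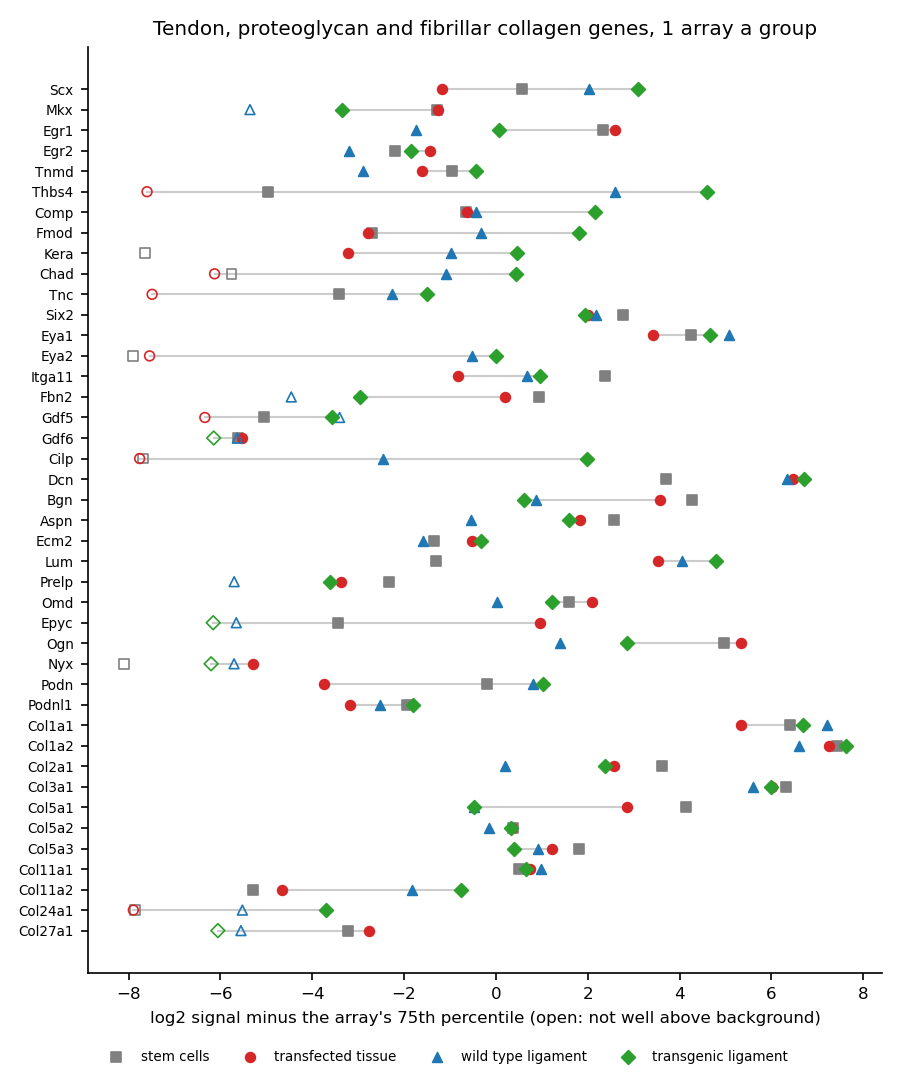
Levels of tendon, proteoglycan and fibrillar collagen genes on the 4 arrays (log2 signal minus the array's 75th percentile, 1 array a sample), with a grey line from the transfected tissue to transgenic ligament. Open symbols were not well above background. Scx, Thbs4, Fmod and Podn show long lines with the tissue on the left, Col1a2, Col3a1 and Dcn lie together on the right, and Bgn, Ogn and Col5a1 show the tissue on the right of both ligaments.

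Fibrillar collagens were mixed. Of 11 genes, 2 were higher (18.2%), 3 lower (27.3%) and 6 within 2-fold, against 20.4% and 36.5% of all genes. The median was 0.04 and runs from -0.05 to 1.21 over the other settings. Col1a2, a chain of type I collagen, had levels of 7.25 in the tissue and 7.62 in transgenic ligament, and Col3a1 had 6.02 and 5.98. Col1a1, the other chain of type I collagen, had levels of 5.34 in the tissue, 6.41 in stem cells, 7.22 in wild type and 6.70 in transgenic ligament. The tissue was thus the lowest of the 4 arrays for Col1a1, 2.57-fold under transgenic ligament. Col5a1, whose chain starts fibril assembly, had levels of 2.86 in the tissue and 4.14 in stem cells, against -0.47 and -0.48 in the ligaments, a difference of 3.34. Col5a2, Col11a1, Col2a1 and Col5a3 had differences of 0.04, 0.07, 0.21 and 0.82. Col11a2 was lower by a difference of -3.91, Col24a1 was at least 4.06-fold lower and Col27a1 at least 2.20-fold higher.

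Small leucine-rich proteoglycans, taken as a list, lay near the shares of all genes. Of 15 genes, 3 were higher (20%), 6 lower (40%) and 6 within 2-fold, against 20.4% and 36.5% of all genes. The median of -0.20, near the -0.23 of all genes, becomes 0.02 after quantile normalization and 0.92 with ribosomal protein genes set equal. Decorin (Dcn, probe at chromosome 10, 96980233 to 96980292, mm9), the main proteoglycan of tendon, had levels of 6.46 in the tissue, 3.71 in stem cells, 6.35 in wild type and 6.72 in transgenic ligament. The tissue thus lay next to both ligaments and apart from the stem cells. Lumican (Lum) had levels of 3.54, -1.31, 4.05 and 4.79 in the same samples, so the tissue again lay nearer to the ligaments than to stem cells, although 2.39-fold under transgenic ligament. Biglycan (Bgn) had levels of 3.58 in the tissue and 4.26 in stem cells, against 0.87 and 0.62 in wild type and transgenic ligament, and Ogn, osteoglycin, had 5.34 and 4.97 against 1.40 and 2.85. Both were higher than in either ligament, by differences of 2.96 and 2.49 from the transgenic array. Epiphycan (Epyc), a proteoglycan of growth cartilage, was not well above background in either ligament and at least 29.1-fold higher in the tissue. Podocan (Podn) had levels of -3.74 in the tissue and 1.02 in transgenic ligament. Podnl1 was lower by a difference of -1.37, while Ecm2, Aspn, Prelp and Omd had differences of -0.20, 0.23, 0.24 and 0.87, and no fold could be given for Nyx.

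Fibril-associated and other interstitial collagens counted 4 higher and 5 lower among 12, against 20.4% and 36.5% of all genes. Their median of -0.64 becomes 0.54 with ribosomal protein genes set equal. The 3 chains examined of type VI collagen, which forms beaded filaments around cells, were higher: Col6a1 had levels of 6.06 in the tissue and 2.31 in transgenic ligament, Col6a2 had 3.51 and -0.85, and Col6a3 had 3.80 and 1.19. Col22a1, a collagen of the muscle-tendon junction, was not well above background in the tissue or in stem cells, and was at least 548-fold lower, with levels of 3.38 in transgenic and 1.88 in wild type ligament. Muscle genes were lower on the same arrays, and their part in this value was not tested. Of the receptors for collagen, laminin and fibronectin, 3 of 14 were higher and 7 lower, and their median of -0.73 becomes 0.44 with ribosomal protein genes set equal. The muscle integrin Itga7 had a difference of -6.68 and Itga10, a collagen receptor of cartilage, one of -4.60, while the collagen receptor kinase Ddr2 had levels of 5.21 and 0.39 and the fibronectin receptor subunit Itga5 a difference of 3.17.

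Most genes that modify and crosslink collagen were higher in the tissue. In a list of 26 genes, 19 stood higher and 1 lower, and the median was 1.36, against 20.4% higher over all genes and an all-gene median of -0.23. The median stayed between 1.26 and 2.54 over the other settings. P3h3, a prolyl hydroxylase family member of the endoplasmic reticulum, had levels of 2.90 in the tissue, 2.95 in stem cells, -1.63 in wild type and -1.42 in transgenic ligament. Both cell arrays stood far above both ligaments. The lysyl oxidase relative Loxl1 had levels of 4.58 and 0.49 in tissue and transgenic ligament, and its 2 probes gave differences of 4.09 and 4.51. Lox itself had levels of 2.53 in the tissue, 4.16 in stem cells, -2.01 in wild type and 0.04 in transgenic ligament, a difference of 2.49. Pcolce and Pcolce2, which speed up the removal of the procollagen tail, had differences of 2.30 and 3.68, and the hydroxylation cofactors Crtap and Fkbp10 had 3.00 and 2.63.

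Elastic fibre and microfibril genes had 13 of 17 members higher and 4 lower, against 20.4% and 36.5% of all genes. The median was 2.20, and 4 of the 17 values are bounds. Latent TGF-beta binding protein 2 (Ltbp2), which associates with fibrillin microfibrils, had levels of 3.69 in the tissue and -0.58 in transgenic ligament. Fbn1, the main fibrillin, had levels of 2.32 and -0.99, and the elastic fibre assembly proteins Efemp2 and Fbln5 had differences of 3.90 and 3.59. Elastin (Eln) was not well above background in either ligament and at least 2.84-fold higher. The 4 lower genes lay far from the rest. Ltbp4 had levels of -1.88 and 3.42, Mfap4 had -2.51 and 2.67, and Mfap2 and Fbln1 were at least 103-fold and 10.9-fold lower. Mfap2 had a second probe, measured on both arrays, with a difference of -3.0.

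Basement membrane genes had 9 of 21 higher and 5 lower, against 20.4% and 36.5% of all genes, with a median of 0.72. Nidogen 2 (Nid2), a linker of laminin and type IV collagen, had levels of 2.90 in the tissue and -2.81 in transgenic ligament, and the laminin chain Lama4 had 3.82 and -0.74. Lama2, the laminin chain of the muscle basement membrane, had levels of -0.42 in the tissue, -4.59 in stem cells, 1.45 in wild type and 2.27 in transgenic ligament. Lama2 was lower than in ligament, yet the tissue lay nearer to the ligaments than to stem cells. Among matricellular proteins, which act on cells without building the matrix, 5 of 20 were higher and 9 lower, near the shares of all genes. Their median of -0.62 becomes 0.07 after quantile normalization, with 7 higher and 7 lower, so the list has no settled direction. Ccn5 had levels of 4.64 in the tissue and -1.64 in transgenic ligament, which is among the 15 largest differences of the genes measured on both arrays. Periostin (Postn) had a difference of 1.79 and fibronectin (Fn1) one of 1.98. In the other direction, tenascins Tnxb and Tnn had differences of -4.22 and -4.04. Lubricin (Prg4), the lubricant of joint and tendon surfaces, was not well above background in the tissue and at least 464-fold lower, while the large proteoglycan versican (Vcan) was higher, its 2 probes giving differences of 0.37 and 2.96.

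Matrix metalloproteinases and their inhibitors had 10 of 15 members higher and 4 lower, against 20.4% and 36.5% of all genes. Their median of 3.03 was the highest of the matrix lists. Of the 15 values 5 are bounds, and of the 10 genes measured on both arrays 8 were higher and 1 lower. Mmp2, a gelatinase of fibroblasts, had levels of 4.41 in the tissue and 1.14 in transgenic ligament, and Mmp14, its activator on the cell surface, had 2.53 and -1.58. The inhibitor Timp3 had levels of 5.81 and 2.31. Mmp3, stromelysin, was at least 21.6-fold higher. The 2 collagenase and gelatinase genes typical of bone and osteoclasts, Mmp13 and Mmp9, were instead at least 109-fold and 36.8-fold lower, as was the inhibitor Timp4 at least 83.6-fold. The osteoclast genes above were lower with them, and their part in these values was not tested. Mesenchymal stromal markers had 11 of 18 higher and 4 lower, with a median of 1.71. Ly6a, a surface marker of mouse stromal progenitors, had levels of 5.62 in the tissue, 6.30 in stem cells, 1.58 in wild type and 1.87 in transgenic ligament, and the limb mesenchyme factor Prrx1 had a difference of 3.24. Nt5e, the surface enzyme CD73 used to define human mesenchymal stem cells, was not well above background in the tissue or in stem cells and was at least 19.5-fold lower, and the leptin receptor Lepr had a difference of -3.56.

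**Figure D4:**
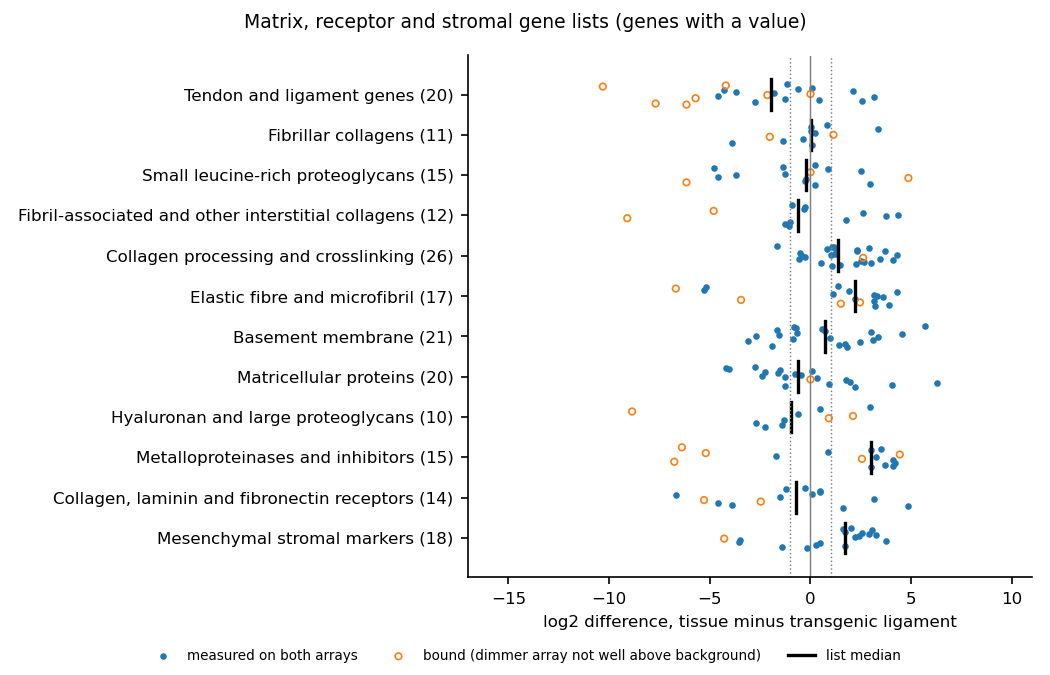
Difference in log2 signal (transfected tissue minus transgenic ligament) for the genes of 12 matrix, receptor and stromal lists, with 1 array a sample. Filled points were measured on both arrays, open points are bounds, black bars are list medians and dotted lines mark 2-fold. The tendon list has its median at -1.97, the collagen processing, elastic fibre and metalloproteinase lists have theirs at 1.36, 2.20 and 3.03, and the medians of the fibrillar collagen, proteoglycan, fibril-associated collagen, matricellular, hyaluronan and receptor lists change sign under at least 1 scaling.

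Growth factors, Wnt genes and transcription factors of the embryo were among the genes furthest above transgenic ligament. Cyp1b1, a cytochrome that oxidises steroids, had levels of 4.45 in the tissue and -3.0 in transgenic ligament, and its difference of 7.45 was the highest among genes measured on both arrays. The heparin-binding growth factor pleiotrophin (Ptn) followed with levels of 6.70 and -0.35, and Osr1, a transcription factor of embryonic connective tissue, had 3.56 and -3.47. Stem cells had levels of 5.12, 6.07 and 2.61 for these genes, so all 3 were also high in cells that had not been transfected. In the Wnt list, 9 of 17 genes were higher and 6 lower, against 20.4% and 36.5% of all genes, and 6 of the 17 values are bounds. R-spondin 2 (Rspo2, probe at chromosome 15, 42852727 to 42852786, mm9), a secreted amplifier of Wnt signals, had a level of 6.26 in the tissue and 5.01 in stem cells and was not well above background in either ligament. It was at least 1139.6-fold higher and the only gene of all 18755 with a difference past 10 in that direction, whereas 100 genes were lower by more than 10. Rspo3 had a difference of 5.68, the receptor Fzd2 one of 5.89 and the Wnt-binding protein Sfrp2 one of 6.69. The Wnt inhibitors Wif1 and Dkk1 were at least 111-fold and 22-fold lower. Insulin-like growth factor genes had 3 of 10 members higher and 5 lower, with a median of -0.80 that becomes 0.37 with ribosomal protein genes set equal. The binding protein Igfbp4 had a difference of 1.36, whereas the binding protein Igfbp6 had levels of -4.34 and 3.98, and the growth factor Igf2 was at least 14.8-fold lower.

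Chemokines split in the same way, with 8 of 17 genes higher and 7 lower, against 20.4% and 36.5% of all genes. Of the 17 values 12 are bounds, and the 5 genes measured on both arrays had a median of -0.37. The monocyte attractant Ccl2 had a level of 4.97 in the tissue and 3.83 in stem cells, and was not well above background in either ligament, which makes it at least 467-fold higher. Ccl7 and the neutrophil attractant Cxcl5 were at least 112-fold and 83.4-fold higher. Cxcl14, a chemokine of skin and other epithelia, was at least 198-fold lower. The macrophage list had 12 of 13 members lower and the neutrophil list 14 of 15 on the same arrays, with 6 and 8 of these values bounds. Complement genes had 5 of 14 higher and 7 lower. The proteases C1ra and C1s1, which start the classical pathway, had differences of 3.59 and 3.80, while the C1 inhibitor Serping1 had levels of -2.87 and 2.90.

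Interferon response genes were higher in the tissue for the larger part. Among 24 genes, 14 stood higher and 2 lower, and the median was 1.70, or 0.95 after normexp background correction. The shares of all genes were 20.4% and 36.5%. Of the 24 values 8 are bounds, and 10 of the 16 genes measured on both arrays stood higher and 1 lower. Against wild type ligament, which shares the tissue array, 12 of the 24 passed 2-fold upward and 4 downward. All-gene shares in that comparison were 20.6% and 35.6%. The list median there was 1.07, bounds included. Isg15, a ubiquitin-like protein, had levels of 2.60 in the tissue, 1.50 in stem cells, 1.34 in wild type and 0.28 in transgenic ligament. The tissue was the highest of the 4 arrays, 4.97-fold over transgenic ligament. Ifit3, which binds the machinery of translation, had levels of 1.48, -0.34, -1.21 and -1.51 in the same order, a difference of 2.99, and Ddx58, the sensor RIG-I, a difference of 3.69. Rsad2, viperin, was an exception. It was not well above background in the tissue or in stem cells, had levels of -0.08 and -1.73 in wild type and transgenic ligament, and was at least 15.8-fold lower. For antigen presentation, B2m, the light chain of MHC class I, had a difference of 2.77, whereas the class II gene H2-Ab1 was at least 590.1-fold lower.

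The 250 bases before the start site of these 3 genes are shown because Isg15 and Ifit3 lie on one side of the comparison and Rsad2 on the other. They are RefSeq sequences of build GRCm38.p6, written 5′ to 3′ on the strand of the gene, with capitals marking each match to GAAANNGAAA on either strand (TTTCNNTTTC on the other), the core of the interferon-stimulated response element. Isg15 lies on the minus strand (window chr4:156200819-156201068), Ifit3 on the plus strand (chr19:34583279-34583528) and Rsad2 on the minus strand (chr12:26456453-26456702).
Isg15: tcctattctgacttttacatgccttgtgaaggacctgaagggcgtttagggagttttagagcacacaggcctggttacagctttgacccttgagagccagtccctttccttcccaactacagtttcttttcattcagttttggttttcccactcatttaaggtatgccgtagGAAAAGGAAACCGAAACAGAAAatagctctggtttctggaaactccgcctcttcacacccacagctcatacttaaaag
Ifit3: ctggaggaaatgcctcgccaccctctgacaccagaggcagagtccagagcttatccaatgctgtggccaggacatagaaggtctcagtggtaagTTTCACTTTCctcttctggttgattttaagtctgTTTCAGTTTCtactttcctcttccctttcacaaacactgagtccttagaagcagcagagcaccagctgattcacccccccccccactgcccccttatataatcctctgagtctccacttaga
Rsad2: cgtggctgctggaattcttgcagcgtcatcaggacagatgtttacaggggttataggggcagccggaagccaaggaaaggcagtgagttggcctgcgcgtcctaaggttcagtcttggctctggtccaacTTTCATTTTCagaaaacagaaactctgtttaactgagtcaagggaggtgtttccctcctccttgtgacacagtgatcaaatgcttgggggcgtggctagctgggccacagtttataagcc
The motif was matched 3 times in Isg15, where the matches overlap, 2 times in Ifit3 and 1 time in Rsad2. Of the 24 interferon genes 18 had a sequence in the promoter table, and 8 of these (44.4%) held the motif in this window, against 3.46% of the 27025 genes of that table. Of the 8 with the motif, 5 were higher and 1 was lower, and of the 10 without it 7 were higher. A match is a description of the letters and says nothing about binding.

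Genes of metabolism and stress differed from list to list. Oxidative phosphorylation, the mitochondrial chain that makes ATP, had 26 of 28 genes lower and none higher at 2-fold, with a median of -2.53. Over all genes 36.5% were lower and 20.4% higher. After quantile normalization 20 of the 28 were lower, with a median of -1.45, and the authors' deposited table gave the same count, with a median of -1.40. Ndufb5, a subunit of complex I, had levels of 2.51 in the tissue and 6.01 in transgenic ligament, and Cox7b, a subunit of complex IV, had 4.57 and 7.94. Of the glycolysis and hypoxia list, 16 of 25 genes were lower and 7 higher, with a median of -2.06, but only 10 were lower after quantile normalization and in the authors' deposited table, with medians of -0.71 and -0.74. Isoforms of an enzyme lay on different sides. The muscle enolase Eno3 had levels of 0.58 and 9.26, the muscle phosphofructokinase Pfkm 2.79 and 7.96, and the muscle phosphoglycerate mutase Pgam2 -4.21 and 8.07. The liver-type phosphofructokinase Pfkl had levels of 0.70 and -2.23, and the widely expressed mutase Pgam1 had 5.55 and 2.02. The muscle list was lower on the same arrays, and its part in these metabolic lists was not tested.

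Tropomyosin 1 (Tpm1, chromosome 9, mm9) showed such a contrast between probes of a single gene. Its brightest probe (66875796 to 66875855) had levels of -0.20 in the tissue and 10.18 in transgenic ligament, a difference of -10.39. Another of its 6 probes (66871166 to 66871225) had levels of 3.58 and -1.28, a difference of 4.85. The probes lie in different parts of a gene known to be spliced differently in muscle and other cells. Whether splicing has a part in these values was not tested. Of 3112 genes with more than 1 probe measured on both arrays, 148 had probes past 2-fold in opposite directions. Of the smooth muscle genes, 8 of 13 were lower and 3 higher, and the median was -2.45. Transgelin (Tagln) had a difference of -4.80 and the actin Acta2 one of 2.14.

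In sterol synthesis 13 of 20 genes were higher, none was lower, and the median was 1.22. For this list and those that follow in this paragraph, the shares of all genes are 20.4% higher and 36.5% lower. Nsdhl and Msmo1, which remove methyl groups from the sterol ring, had differences of 4.03 and 3.78, and squalene epoxidase (Sqle) had levels of 3.52 and 0.39. Glutathione and antioxidant genes had 13 of 17 higher and 1 lower, with a median of 1.74. Haem oxygenase 1 (Hmox1) had levels of 5.10 in the tissue, 2.86 in stem cells, 0.51 in wild type and 0.02 in transgenic ligament, the tissue being the highest of the 4 arrays. Gsta4, a transferase that clears lipid aldehydes, had levels of 3.32 and -2.47. Unfolded protein and amino acid stress genes had 11 of 20 higher and 1 lower, with a median of 1.14. Their widest differences were those of the pseudokinase Trib3 (4.13), the transcription factor Ddit3 (3.82) and asparagine synthetase (Asns, 3.58). The probe that stands for their regulator Atf4 had levels of 6.71 and 6.67, but a second Atf4 probe gave a difference of 1.89. The small heat shock protein Hspb1, abundant in muscle, had levels of -4.20 and 6.49.

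Cell cycle genes had 18 of 30 members higher and 1 lower, against 20.4% and 36.5% of all genes, with a median of 1.39. Of the 30 values 8 are bounds. Normexp background correction brought the median down to 0.71 and left 14 members higher. The mitotic kinesin Kif20a had levels of 1.50 in the tissue, 3.81 in stem cells, -2.02 in wild type and -3.51 in transgenic ligament, so the tissue stood between the stem cells and the ligaments. Topoisomerase Top2a was at least 9.27-fold higher than in transgenic ligament, where its probe was not well above background. Against wild type ligament, which shares the tissue array, 9 of the 30 cell cycle genes stood higher and 3 lower. The shares of all genes in that comparison were 20.6% and 35.6%. The list median there was only 0.45, bounds included. The proliferation marker Mki67 had levels of 1.20 and 2.02 and lay within 2-fold, and the ribonucleotide reductase subunit Rrm2 had 0.60 and 2.72. Red cell and neutrophil genes were above background in both ligaments on the same arrays, and their part in these values was not tested. Immediate early genes had 10 of 18 higher and 2 lower, against 20.4% and 36.5% of all genes, and 3 of the 18 values are bounds. Fos and Myc had differences of 2.15 and 2.43.

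Genes that record position along the body lay on both sides, and the higher Hox genes were all in Hoxa. In each of Hoxb, Hoxc and Hoxd only 1 gene with numbers 1 to 5 had a value. Hox genes, whose combination gives cells of an adult their place along the axis and the limb, had 5 of 21 members higher and 13 lower, with a median of -3.38, or -0.09 over the genes measured on both arrays. Of the 21 values 12 are bounds, and over all genes 20.4% were higher and 36.5% lower. Of the 8 genes with numbers 1 to 5, 4 were higher, all of them in Hoxa, and 2 lower. Of the 13 with numbers 6 to 13, 1 was higher and 11 lower. All 13 were above background in transgenic ligament but only 5 in the tissue, and the others are lower by construction. Hoxa2 was at least 28.1-fold higher. Hoxc9 had levels of -4.25 and 2.04, and Hoxc10, a gene of the hindlimb, was not well above background in either cell array and at least 137-fold lower. The hindlimb factors Pitx1 and Tbx4 had the same order, at least 14.6-fold and 11.4-fold lower. Hoxa7 was the exception among higher numbers, with levels of 2.88 and 1.06. The transcription factors Nr2f1 and Meis2 had differences of 6.43 and 5.34. The imprinted growth inhibitor Cdkn1c was at least 718-fold lower, with levels of 3.77 and 3.22 in the ligaments, and the imprinted gene Mest had a difference of 4.05.

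**Figure D5:**
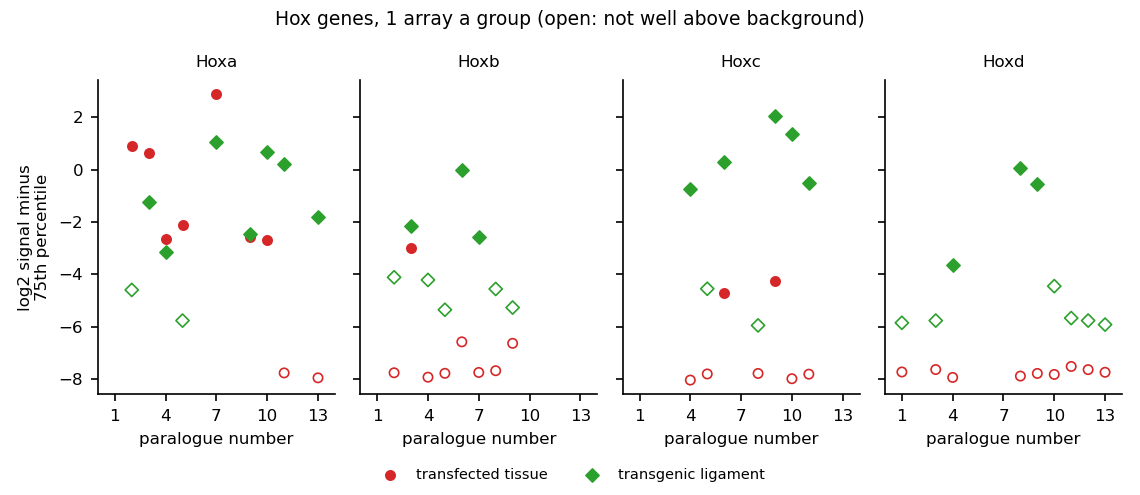
Levels of the Hox genes shown (log2 signal minus the array's 75th percentile) in the transfected tissue and transgenic ligament, by cluster and paralogue number, with 1 array a sample. Open symbols were not well above background. In Hoxa the tissue lies above ligament at numbers 2 to 5 and 7 and at or below it from 9 on, and in Hoxb, Hoxc and Hoxd the genes above background in ligament lie above the tissue.

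Some of the brightest genes were nearly equal on the arrays. In all, 2101 of the 14221 genes measured on both arrays lay within 0.32 of each other on the log2 scale. Among the brightest of them, Ppia, cyclophilin A, had levels of 7.07 and 7.07, and cystatin C (Cst3) had 6.54 and 6.67. Col3a1, Dcn and Atf4 have been given above, Atf4 with a second probe at a difference of 1.89. Of 17 housekeeping genes, 3 were higher, 4 lower and 10 within 2-fold. Ribosomal protein genes had 14 of 24 lower and none higher, with a median of -1.13 that turns to 0.57 after quantile normalization and 0.48 in the authors' deposited table, so they have no settled direction.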

How the data were processed

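The deposited scanner files hold, per the file headers, spot intensity on a linear scale as background-subtracted and detrended processed signal from Agilent Feature Extraction 10.7.1.1, with no scaling between arrays. The submitters' processing notes name version 9.5.1.1, and the difference is not settled. The deposited value table holds intensity that the authors made comparable between arrays by a method not given in the sources used here. All 4 arrays share a scan time and a slide, per the file headers, so neither separates the groups.

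Control and outlier spots were left out, log2 intensity minus the array's 75th percentile was taken, and spots of a probe were averaged. For a gene with several probes, the one with the highest mean of all 4 arrays stands for it. Probes were named by RefSeq accession (26761 of 39429) or else by the file's symbol, and positions are those of the files (mm9). Python 3.11.15 with pandas 2.3.3 and numpy 2.4.6 were used, and limma 3.58.1 in R 4.3.3 for normexp with offset 50. The script was tested on simulated arrays.

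With 1 array a group no test was run, and the precision is limited by the number of arrays. Samples were grouped by their titles. The members, the gene lists and the rule for names were chosen with earlier results of these data known. Named genes are the 15 highest and 15 lowest genes measured on both arrays, the 8 largest bounds each way, the 15 brightest of each array, the 15 brightest within 1.25-fold, and members of the lists, with the tendon, fibrillar collagen and proteoglycan lists given member by member. A few genes that the rule names are not reported here. Of 850 list genes 846 were on the array. Alternatives changed 1 choice at a time: background correction, normalization, centring, values, filter on dim probes, probe choice, outlier spots and threshold, and, added after seeing the data, only probes on the gene's own chromosome. Among 884 named or list genes, 11 had a representative probe on another chromosome. Promoters come from a RefSeq table of build GRCm38.p6.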

Additional observations from a re-analysis of the deposited data

Results flagged for a closer look

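Some genes of the tendon, collagen and matricellular lists lay on opposite sides when each sample that received A was set against its own control, the transfected tissue against stem cells and transgenic against wild type ligament. In each case the tissue was at least 2-fold below stem cells and transgenic ligament at least 2-fold above wild type ligament. The genes were picked for this pattern, and no share of all genes on opposite sides is given to read them against. Among all genes, 115 passed 2-fold upward in the 2 comparisons alike and 173 passed it downward. The tissue had also been grown into a ligament-like state, so A is not all that separates it from stem cells. With 1 array a group the differences were not tested against each other. Scleraxis (Scx) differed by -1.75 in the tissue and by 1.08 in ligament. Lysyl oxidase (Lox) differed by -1.63 and 2.05, and the cartilage collagen Col2a1 by -1.04 and 2.16. The matricellular genes Ccn2 and Ccn4 differed by -1.75 and 1.86 and by -1.01 and 2.09, and thrombospondin 2 (Thbs2) by -1.81 and 1.04. Set directly against transgenic ligament, the tissue had differences of -4.28 for Scx, 2.49 for Lox, 0.21 for Col2a1, -1.27 for Ccn2, 0.91 for Ccn4 and 0.06 for Thbs2. A second Ccn4 probe gave 2.64. Thbs2 and Col2a1 were thus nearly equal on these arrays, although each stood on the other side of its own control.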

How the results depend on the processing

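No paired analysis was possible because each group has 1 array. For the same reason no array could be left out, and no count or value above has a replicate check. The counts of 3818 higher and 6840 lower genes became 8062 and 3864 with ribosomal protein genes set equal, and 1590 and 4286 at 4-fold. Without any filter or bound the lower genes numbered 17288 of 30137, because values below background were then taken as measured. Under normexp, quantile normalization, centring on probes above background on all arrays, the deposited table, probes measured on both arrays only, the mean of all probes, kept outlier spots and probes on the gene's own chromosome, both counts stayed within 1.5 times. The median of the imprinted genes was 1.64 over the 6 measured on both arrays against -2.24 with bounds, since the bounds leave it. The ribosomal protein median of -1.13 was 0.57 after quantile normalization and 0.48 in the deposited table, and the cause was not tested. Of 626 named or list genes called at 2-fold, 558 kept their call and direction under quantile normalization, 559 in the deposited table, 579 under normexp and 537 with ribosomal protein genes set equal. Signal over background limits the 4534 bounds.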

Other observations

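Of 14 genes of early embryonic cells 8 had a value, 4 of them higher and 3 lower, and the core factors Pou5f1 and Sox2 were not well above background on either array. The RNA-binding protein Igf2bp2 had a difference of 2.71. TGF-beta pathway genes had 6 of 17 higher and 4 lower, with a median of 0.21, but 4 higher and 6 lower with a median of -0.13 under normexp, and 10 higher and 1 lower with ribosomal protein genes set equal, so the balance has no settled direction. The ligand Tgfb2 had a difference of 2.39, the target Id3 one of 2.51 and Skil, an inhibitor of the pathway, one of -3.36.

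The pigment cell gene Mlana had a level of -0.39 in the transfected tissue and was not well above background on the 3 other arrays, which makes it at least 11.4-fold higher than in transgenic ligament. The pigment enzyme gene Dct was instead lower, with a bound of -3.29. Xist, transcribed from the inactive X chromosome, was well above background on all 4 arrays, with levels of -0.80 in the tissue and -1.25 in transgenic ligament, and the Y-linked genes Ddx3y, Uty, Kdm5d and Eif2s3y were not well above background on the compared arrays.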
